A study of Macaca fascicularis with 23 samples.

Results

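The cytosolic ribosomal proteins were represented by 57 of the 12625 probe sets of a human gene array hybridised with liver RNA of cynomolgus monkeys (Macaca fascicularis). A probe set was taken as a member when the array's annotation named a single gene for it and that gene's symbol was RPL or RPS followed by a digit, or RPLP0, RPLP1, RPLP2 or RPSA, with the S6 kinase symbols that start with RPS6K left out. The 57 probe sets stood for 51 genes, with 32 probe sets for the large and 25 for the small ribosomal subunit. The rule reads gene symbols alone. A further 19 probe sets named a ribosomal protein together with another gene and were not members, so that RPLP0, RPLP2, RPSA and RPL5 among others have no values here.

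The animals had been given ciprofibrate, a lipid-lowering fibrate and agonist of the receptor PPAR-alpha, or its vehicle, and each of the 23 arrays held the liver RNA of a different animal. For 15 days of treatment there were 3 animals on vehicle and 4 animals each at 3, 30, 150 and 400 mg/kg/day. For 4 days of treatment there were 2 animals at 400 mg/kg/day and 2 animals on vehicle. The labels describe an animal by its treatment and day, with no agent besides vehicle and ciprofibrate. Tissue came from the right lateral lobe, so a single lobe stands for the liver. The probes were designed against human transcripts, and the order of intensities between probe sets is therefore no order of mRNA amounts.

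Ribosomal proteins surround and stabilise the ribosomal RNAs of the large and small subunits, and a cell makes them in near-equal numbers. Their mRNAs are among the most abundant in liver and start with a terminal oligopyrimidine tract, through which the mTOR pathway controls their translation as a group. Several of them also have roles outside the ribosome, in DNA repair, in the control of p53 and in the translation of particular mRNAs.

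The deposited values were MAS5 intensities on a linear scale, and differences were fitted on log2(intensity + 16), a scale that understates the change of dim probe sets. A probe set was tested when its mean log2 value over all 23 arrays was in the upper part of the distribution, at 5.80 or more, an intensity of 39.7. This left 52 ribosomal protein probe sets for 47 genes among 7535 tested probe sets. A member was called changed when limma's moderated test, fitted over all 7 groups, gave a Benjamini-Hochberg adjusted p under 0.05 over the 7535 probe sets. All tests were two-sided. Errors of fitted differences are standard errors and errors of intensities are SDs over the animals of a group.

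All 8 hepatocyte marker genes measured, ALB, APOA1, APOB, APOC3, TTR, TF, SERPINA1 and FGB, passed the intensity filter with each of their probe sets. The summed intensity of their 11 probe sets was 93889 to 105940 after 15 days of 400 mg/kg/day, against 105345 to 124681 on vehicle. These ranges overlapped, and 0 of the 11 probe sets passed the test, where 2.14% of all tested probe sets did. Each array had been scaled to the same trimmed mean, which lay between 150.065 and 150.08. The arrays correlated with each other over the ribosomal protein probe sets at a mean of 0.954 to 0.979. In whole tissue, a smaller number of cells of one type and less RNA per cell cannot be told apart.

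Averaged over the 52 tested probe sets, the ribosomal protein signal of an animal lay between 10.59 and 11.01 on the log2 scale. The same arrays' means over all tested probe sets stayed within 7.45 to 7.52. At 15 days the mean was 10.80 ± 0.147 on vehicle (n = 3), 10.91 ± 0.0908 at 3 mg/kg/day, 10.79 ± 0.149 at 30, 10.69 ± 0.0726 at 150 and 10.83 ± 0.155 at 400 mg/kg/day (SD, n = 4 each). At 4 days it was 10.87 ± 0.0729 at 400 mg/kg/day and 10.85 ± 0.0623 on vehicle (SD, n = 2 each). Among the 15-day groups the ranges overlapped, except that every animal at 3 mg/kg/day stood above every animal at 150 mg/kg/day. One vehicle animal of the 15-day set, replicate 1, stood above the other 2 at 10.97 against 10.70 and 10.74, and it enters every comparison with the 15-day vehicle.

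**Figure D1:**
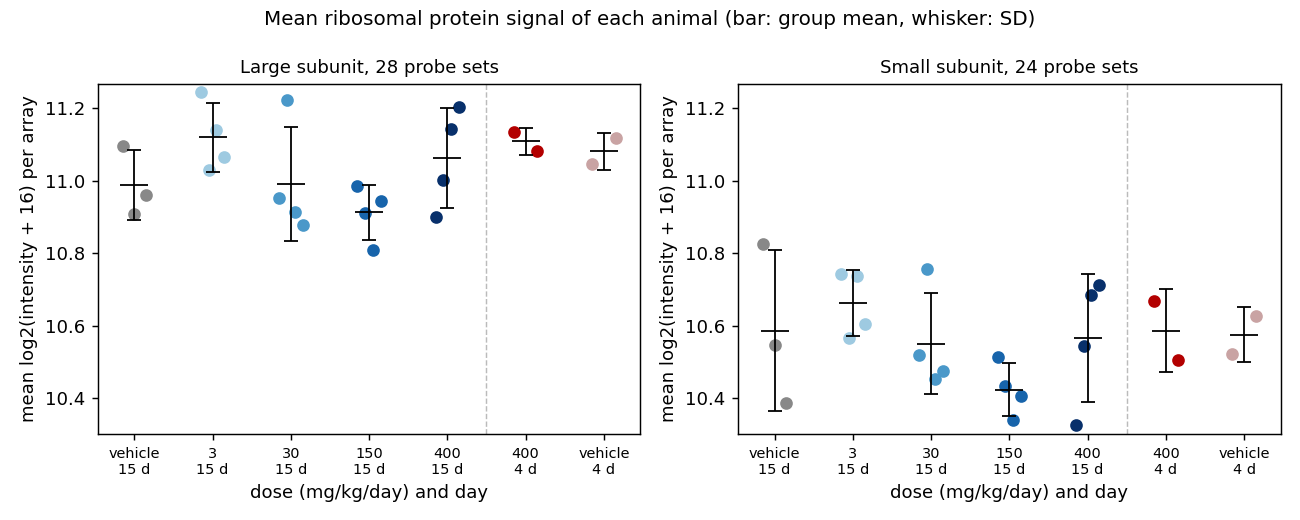
Mean log2(intensity + 16) over the 28 large-subunit (left) and 24 small-subunit (right) probe sets in each animal, by dose in mg/kg/day and day; horizontal bars are group means and whiskers SDs. The 4 animals at 150 mg/kg/day lie low and close together in both panels, and vehicle replicate 1 stands above the other vehicle animals of the 15-day set.

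The ribosomal protein probe sets varied little between animals of a group. The median within-group SD was 0.212 on the log2 scale over the 52 members, against 0.443 over all 7535 tested probe sets. Among probe sets with a mean intensity over 1000 it was 0.206 for 37 members and 0.282 for the 438 others. With a smaller SD a probe set passes a threshold at a smaller difference. The shares of all tested probe sets given below make no allowance for this. Members are read on the same arrays, so a count of members is no count of independent results.

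The 5 probe sets under the intensity filter were those of RPL3L, a paralogue of RPL3 found mainly in muscle, of RPL39 and its testis-enriched paralogue RPL39L, of RPL23AP53, which is a pseudogene, and 1 of the 2 probe sets of RPS14. Their mean intensities were 19.0, 15.1, 10.8, 15.1 and 29.4. The 5 probe sets with the highest mean over all arrays belonged to RPL41, RPS27, RPL37A, RPS18 and RPS12. RPL41 encodes the shortest ribosomal protein, and its intensity was 13359, 13565, 16276 and 17799 after 15 days of 400 mg/kg/day, against 15815, 13528 and 13587 on vehicle. The groups overlapped, and the fitted difference was 0.08 ± 0.15.

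The highest dose, 400 mg/kg/day, was compared with vehicle at 15 days. None of the 52 probe sets passed the test in either direction, where 2.14% of all tested probe sets did. The median difference was 0.03 on the log2 scale, beside -0.03 over all tested probe sets, and 29 of the 52 lay above 0. The 95% confidence interval of the difference lay within a 2-fold change in either direction for 47 of the 52 probe sets and within a 1.5-fold change for 34. An unadjusted p under 0.05 was reached by 7 of the 52, or 13.5%, beside 12.5% of all tested probe sets. By subunit, 18 of 28 large-subunit and 11 of 24 small-subunit probe sets lay above 0, with medians of 0.08 and -0.03.

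**Figure D2:**
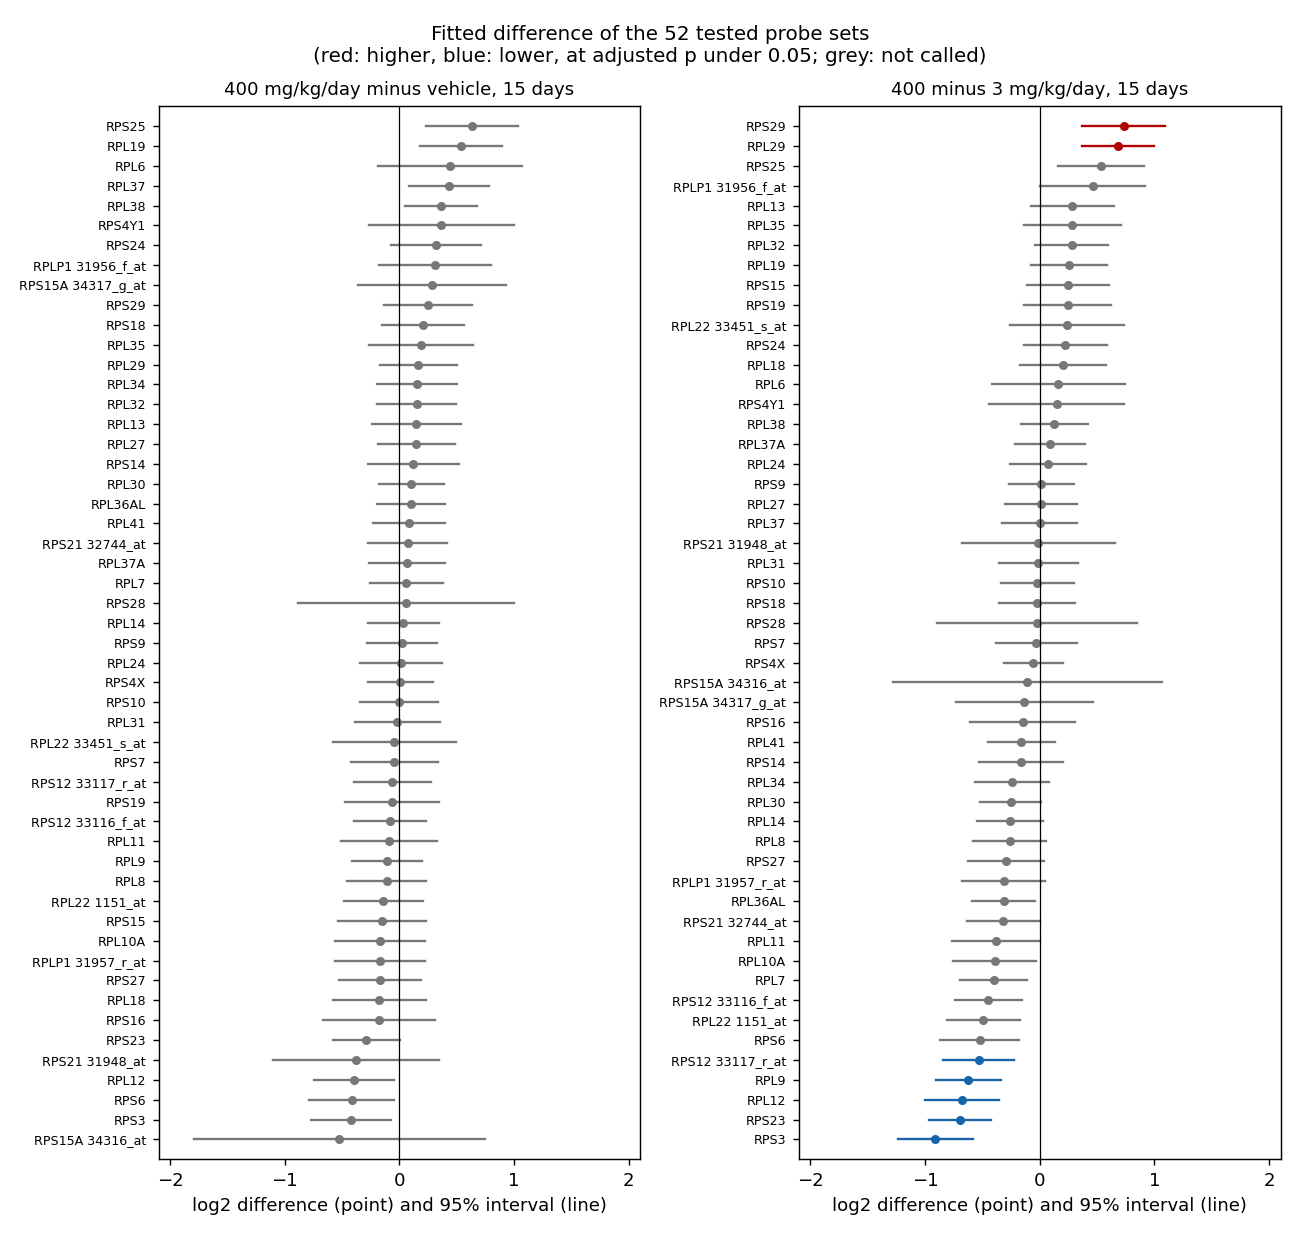
Fitted log2 difference (point) with its 95% confidence interval (line) for the 52 tested probe sets, for 400 mg/kg/day minus vehicle (left) and 400 minus 3 mg/kg/day (right) at 15 days; red and blue mark probe sets called higher and lower. No probe set is called on the left, where RPS25 has the highest value at 0.63, and 7 are called on the right, where RPS3 has the lowest at -0.91.

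The largest positive difference belonged to RPS25, a small-subunit protein used in initiation at internal ribosome entry sites. Its intensity was 1023, 895, 1171 and 1036 at 400 mg/kg/day, against 787, 741 and 486 on vehicle. Every treated animal lay above every vehicle animal, and the difference of 0.63 ± 0.19 had an adjusted p of 0.104. Probe sets with such a separation upward made up 6.72% of all tested and 4 of the 52 members, the others being RPL19, RPL38 and RPS24. RPL19, a large-subunit protein, had intensities of 1050.0, 1077, 1031 and 1134 at 400 mg/kg/day, against 672, 657 and 895 on vehicle, and a difference of 0.54 ± 0.17 (adjusted p = 0.121). The differences of RPL38, a large-subunit protein needed for the translation of a set of Hox mRNAs in mouse embryos, and of RPS24, which is mutated in some patients with Diamond-Blackfan anaemia, were 0.37 ± 0.15 and 0.32 ± 0.19. RPL6, RPL37, RPS4Y1 and the RPLP1 probe set 31956_f_at completed the 8 largest positive differences at 0.44, 0.43, 0.36 and 0.31, with adjusted p-values of 0.260 or more and overlapping animals. Leaving out 1 vehicle animal took RPL6 to 0.12 (replicate 1) and RPS4Y1 to 0.16 (replicate 3).

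On the negative side, RPS6, the small-subunit protein that S6 kinases phosphorylate, had intensities of 2172, 2856, 2441 and 3079 at 400 mg/kg/day, against 3781, 3296 and 3415 on vehicle. Every treated animal lay below every vehicle animal, and the difference was -0.42 ± 0.18 with an adjusted p of 0.312. RPS23, which lies at the decoding centre of the small subunit, was the other member separated downward, a separation seen in 6.53% of all tested probe sets, with a difference of -0.29 ± 0.14. RPS3, which sits at the mRNA entry channel and also acts in DNA repair, differed by -0.42 ± 0.17, and RPL12, of the base of the large subunit's stalk, by -0.40 ± 0.17. The vehicle animals of RPS3 ranged from 2469.7 to 4518, so that 1 of them lay below 2 of the 4 treated animals. The remaining negative differences among the 8 largest were those of the RPS15A probe set 34316_at, the RPS21 probe set 31948_at, RPS16 and RPL18, at -0.52, -0.38, -0.18 and -0.18, and the animals of each overlapped. Without replicate 1 at 400 mg/kg/day the difference of RPS15A 34316_at was -0.0030, and without vehicle replicate 1 those of RPS16 and RPL18 were 0.08 and 0.03.

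The members named for their known roles did not pass the test at this dose. RPL11, which binds MDM2 when ribosome assembly is disturbed, had a difference of -0.09 ± 0.20 with a 95% interval of -0.51 to 0.33. RPS19, the gene most often mutated in Diamond-Blackfan anaemia, had -0.06 ± 0.20 with an interval of -0.48 to 0.35. RPL36AL, an expressed retrogene copy of the RPL36A family, had 0.10 ± 0.14 with an interval of -0.20 to 0.40. None of these intervals reached a 1.5-fold change in either direction.

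At 150 mg/kg/day 0 of 52 probe sets passed the test, beside 0.677% of all tested. The median difference from vehicle was -0.11, beside -0.02 over all tested probe sets, and 34 of the 52 lay below 0. Without vehicle replicate 1 this median was -0.01. Unadjusted p-values under 0.05 were found for 7 members (13.5%), beside 11.3% of all tested probe sets. RPS19 had the most negative difference, -0.71 ± 0.20 with an adjusted p of 0.121. Its intensities were 1933, 1637, 1373 and 2277 at 150 mg/kg/day, against 3427, 3021 and 2377 on vehicle, without overlap. The other members with every treated animal below every vehicle animal were RPL13, RPL29, RPS4X and RPS6, which makes 5 members where 4.98% of all tested probe sets were so separated. RPL36AL and RPL38 were separated upward, as were 5.16% of all tested probe sets; these members were listed after their values were seen. The most positive differences were 0.36 for RPL37, 0.32 for RPL36AL and 0.28 for RPL19.

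At 30 mg/kg/day 0 of 52 probe sets passed the test, beside 0.0133% of all tested, and 7 had an unadjusted p under 0.05 (13.5% beside 9.82%). The median difference was 0.04. The most negative difference was that of the dim RPS15A probe set 34316_at at -1.20 ± 0.61, whose intensities were 61.2, 4.20, 4.60 and 107 at 30 mg/kg/day, against 136, 77.4 and 59.8 on vehicle. Those of the other RPS15A probe set, 34317_g_at, were 160.5, 151, 100.5 and 137 at 30 mg/kg/day, against 138, 171 and 70.8 on vehicle, with a difference of 0.16. RPS15 and RPS19 followed at -0.54 and -0.48, and RPS25, RPS24 and the RPS12 probe set 33117_r_at had the most positive differences at 0.47, 0.42 and 0.33. No member was separated upward and only RPL29 downward, each beside 4.03% of all tested probe sets.

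At 3 mg/kg/day 0 of 52 probe sets passed the test and neither did any other probe set (0%). The median difference from vehicle was 0.14, beside -0.02 over all tested probe sets, and 35 of the 52 lay above 0. An unadjusted p under 0.05 was found for 15 members, or 28.8%, beside 10% of all tested probe sets, and the smallest adjusted p was 0.229. Of these, 12 were higher, beside 5.03% of all tested, and 3 were lower, beside 5.02%. The smaller within-group SD of the members is not allowed for in these shares. RPL9, RPS3 and the RPS12 probe set 33117_r_at had the most positive differences at 0.52 ± 0.15, 0.49 ± 0.17 and 0.47 ± 0.16. RPL29, RPS29 and the RPS15A probe set 34316_at had the most negative at -0.52 ± 0.16, -0.48 ± 0.19 and -0.42 ± 0.61. The large-subunit members RPL7, RPL9, RPL34, RPL36AL and RPL37 had every treated animal above every vehicle animal, as did 4.05% of all tested probe sets. RPL29 and RPS29 were separated downward, as were 4.86%; these members too were listed after their values were seen. Without vehicle replicate 1 the median was 0.23 and the count of calls was still 0.

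The 4 dose comparisons share the same 3 vehicle animals, so their agreement in sign is not independent. Ranked by group mean over the 5 groups of the 15-day set, 26 of the 52 probe sets (50%) were highest at 3 mg/kg/day, beside 18.8% of all tested probe sets. The group at 150 mg/kg/day held the lowest mean for 20 members (38.5% beside 18.3%). At 400 mg/kg/day the mean was the highest for 15 members (28.8% beside 21.8%) and the lowest for 10 (19.2% beside 23.1%). These shares describe the animals' groups and carry no test.

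A straight trend over the 5 ordered groups of the 15-day set, vehicle, 3, 30, 150 and 400 mg/kg/day taken as equal steps, was fitted as the slope per step. Only RPS3 passed the test, falling by 0.14 ± 0.04 log2 units per step (adjusted p = 0.0322), where 3.11% of all tested probe sets passed. Its group means were 3343 ± 1057 on vehicle (n = 3), 4571 ± 539 at 3, 3518 ± 429 at 30, 3022 ± 369 at 150 and 2415 ± 166 at 400 mg/kg/day (SD, n = 4 each). The mean thus stood above vehicle at 3 and 30 mg/kg/day and below it at the 2 highest doses. Without vehicle replicate 1 the adjusted p of this slope was 0.206. It was 0.0555 without vehicle replicate 3, and 0.0844 and 0.0645 without replicates 1 and 3 at 400 mg/kg/day, and 4 of 9 alternative settings also ended the call. Of 8 Kupffer cell and macrophage probe sets 2 fell in the same slope, CD14, an endotoxin co-receptor, by 0.18 ± 0.05 and CD5L, a secreted macrophage protein, by 0.32 ± 0.08 per step, and their part in the RPS3 slope was not tested. The slopes of RPS6 and RPL12, -0.14 and -0.13, had adjusted p-values of 0.0501 and 0.0617, and the most positive slopes were 0.12 for RPS25, 0.11 for RPL19 and 0.08 for RPL37. An unadjusted p under 0.05 was found for 8 members, or 15.4%, beside 13.9% of all tested probe sets.

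Between the 2 ends of the dose range, 400 and 3 mg/kg/day at 15 days, 7 of the 52 probe sets passed the test, or 13.5%, beside 4.18% of all tested. RPS3, RPS23, RPL12, RPL9 and an RPS12 probe set fell, which is 5 members beside 2.26% of all tested probe sets. RPL29 and RPS29 rose, which is 2 members beside 1.92%. The median over the 52 was -0.03, beside 0.01 over all tested probe sets, and the members lay on both sides of 0, with 32 below it. An unadjusted p under 0.05 was found for 16 members, or 30.8%, beside 17.2% of all tested probe sets. The animals of 9 members were separated downward, where 5.45% of all tested probe sets were, and those of 3 upward, where 5.75% were. None of these shares allows for the smaller within-group SD of the members.

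RPS3 fell most. Its intensity was 2197, 2558, 2378 and 2529 at 400 mg/kg/day, against 5311, 4061, 4318 and 4595 at 3 mg/kg/day. The groups were far apart, with a difference of -0.91 ± 0.16 and an adjusted p of 0.00122. RPS23 was 3940.3, 4163, 4535 and 4318 at 400 mg/kg/day, against 7885, 5875, 6645 and 7163 at 3 mg/kg/day. It fell by 0.69 ± 0.13 (adjusted p = 0.00230), and again no animal of one group reached the range of the other. The second RPS12 probe set, 33116_f_at, had a difference of -0.45 ± 0.14 that did not pass (adjusted p = 0.0767), while 33117_r_at fell by 0.53 ± 0.15 (adjusted p = 0.0434) with intensities of 4900.2, 5144, 5204 and 6278 at 400 mg/kg/day, against 9431, 7156, 7991 and 6691 at 3 mg/kg/day. RPS12, a small-subunit protein near the beak of that subunit, is thus represented by probe sets on either side of the threshold with the same sign.

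In the large subunit, RPL12 was 1657, 1534, 2194 and 2257 at 400 mg/kg/day, against 2627, 3163, 2994 and 3349.9 at 3 mg/kg/day. It fell by 0.68 ± 0.16 (adjusted p = 0.0126). RPL9, which lies beside the stalk base, was 2718, 2473, 2792 and 2789 at 400 mg/kg/day, against 5126, 3992, 3596 and 4049 at 3 mg/kg/day. It fell by 0.62 ± 0.14 (adjusted p = 0.00834), and neither member's groups overlapped.

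The members that rose were RPL29, a small basic protein of the large subunit, and RPS29, a zinc-binding protein of the small subunit. RPL29 was 655, 848, 932 and 830.1 at 400 mg/kg/day, against 441, 517, 608 and 441 at 3 mg/kg/day, and rose by 0.69 ± 0.15 (adjusted p = 0.00866). RPS29 was 609, 658, 671 and 487 at 400 mg/kg/day, against 319, 388, 375 and 347 at 3 mg/kg/day, and rose by 0.73 ± 0.17 (adjusted p = 0.0141). The vehicle animals overlapped those at 400 mg/kg/day for both genes. They had 764, 713 and 686 for RPL29 and 462, 572 and 482 for RPS29, both above every animal at 3 mg/kg/day. For RPL29 the 12 animals at 3, 30 and 150 mg/kg/day lay at 419 to 608, all below the vehicle animals, while those at 400 mg/kg/day overlapped the vehicle range.

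**Figure D3:**
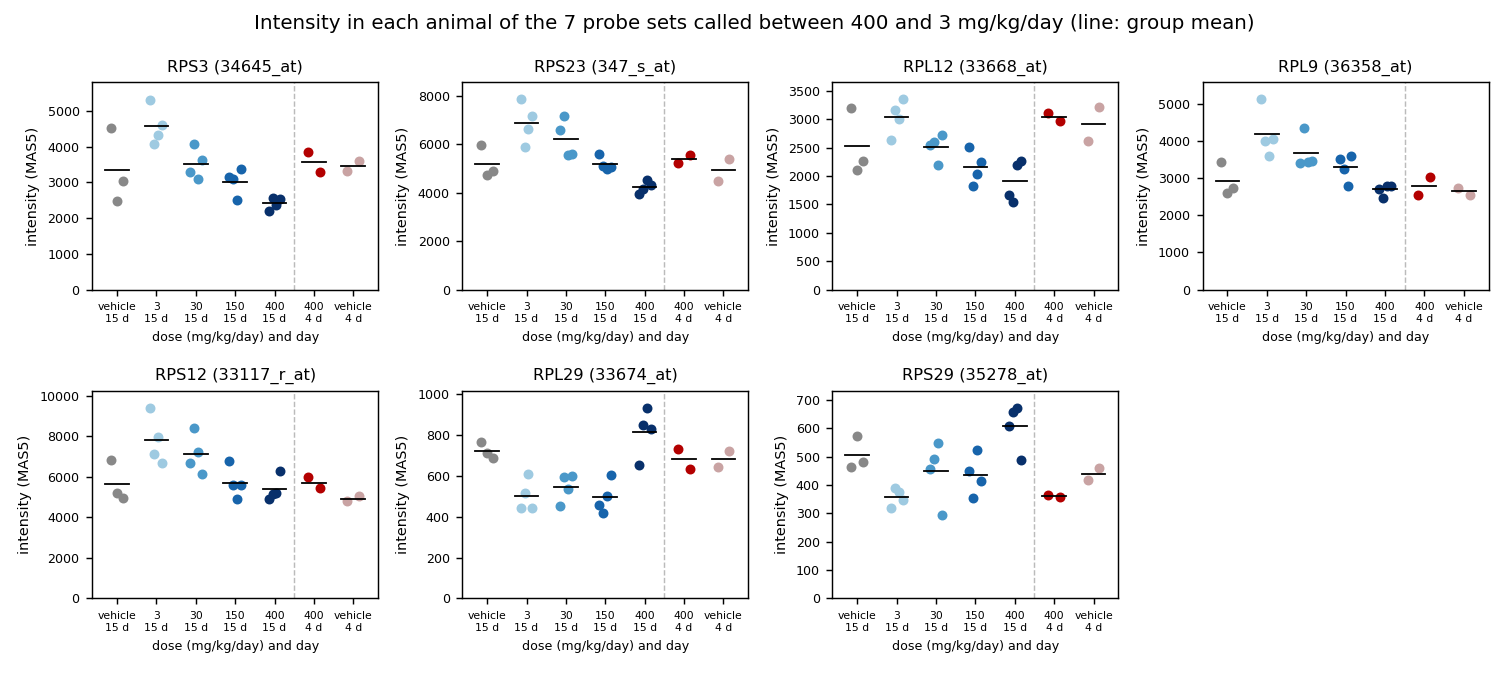
Intensity (MAS5, linear axis from 0) in each animal for the 7 probe sets called between 400 and 3 mg/kg/day at 15 days, by dose and day, with group means as lines. RPS3, RPS23, RPL12, RPL9 and RPS12 are highest at 3 mg/kg/day and lowest at 400 mg/kg/day among the treated 15-day groups, and RPL29 and RPS29 run the other way at these 2 doses.

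None of the 7 was called against vehicle at either dose. The differences of 400 mg/kg/day from vehicle were -0.42 for RPS3, -0.29 for RPS23, -0.40 for RPL12, -0.11 for RPL9, -0.06 for RPS12, 0.17 for RPL29 and 0.25 for RPS29. The differences of 3 mg/kg/day from vehicle were 0.49, 0.40, 0.28, 0.52, 0.47, -0.52 and -0.48 for the same genes in that order. Each of the 7 thus had opposite signs at the 2 doses, except that without vehicle replicate 1 the differences of 400 mg/kg/day from vehicle turned to 0.08 for RPS12 and 0.0093 for RPL9, and that of RPS12 to 0.02 with the same median on every array. The vehicle animals enter both sets of values. The 7 were also picked for their difference between these 2 doses, which itself favours opposite signs around vehicle. The signs are therefore no separate result. Leaving out single animals ended 3 of the calls, and 4 of 9 alternative settings ended that of RPS12. RPS12 was lost without replicate 1, 2 or 3 of either dose (adjusted p up to 0.144), RPL12 without replicate 2 at 400 mg/kg/day (0.0564) and RPS29 without replicate 3 at 400 mg/kg/day (0.0530). RPL12 also narrowly missed the threshold without replicate 1 at 400 mg/kg/day.

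Other genes of translation were read in the same comparison, 400 against 3 mg/kg/day. Of all tested probe sets 2.26% were called lower and 1.92% higher in it. Of 8 elongation factor probe sets 2 fell and 0 rose, with differences of -0.65 ± 0.13 for EEF1A1, which brings aminoacyl-tRNA to the ribosome, and -0.50 ± 0.11 for EEF1D, a subunit of its exchange factor. Of 33 initiation factor probe sets 4 fell and 0 rose, with differences of -1.11 ± 0.30 and -0.96 ± 0.23 for the pair of EIF2S3 probe sets, -1.11 ± 0.29 for EIF5 and -0.81 ± 0.20 for EIF4B. Of 18 ribosome biogenesis probe sets 2 fell and 0 rose, with differences of -0.67 ± 0.17 for nucleolin, NCL, and -0.75 ± 0.16 for the rRNA methyltransferase fibrillarin, FBL. Of 14 mitochondrial ribosomal protein probe sets 1 rose, MRPS12 at 0.70 ± 0.16, and 0 fell, and of 7 S6 kinase probe sets 0 passed the test. Of 14 probe sets for other genes with terminal oligopyrimidine tracts or bound to ribosomes only EEF1A1, already counted, fell. The medians of the lists were -0.33 for elongation factors, -0.11 for initiation factors, -0.24 for biogenesis, -0.02 for the other terminal oligopyrimidine genes, 0.07 for mitochondrial ribosomal proteins and 0.16 for S6 kinases.

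Against vehicle, the same lists held 1 call, at 150 mg/kg/day, where 0.677% of all tested probe sets passed. It was EIF4B, higher by 0.97 ± 0.22 (adjusted p = 0.0355). At 400 mg/kg/day the smallest adjusted p in these lists was 0.0625, for a BTF3 probe set with a difference of 0.60 ± 0.17. BTF3 is a subunit of the nascent polypeptide-associated complex.

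Some markers of liver cell types passed the test between 400 and 3 mg/kg/day, where 2.26% of all tested probe sets were called lower. Of 8 Kupffer cell and macrophage probe sets 2 fell, with differences of -2.21 ± 0.46 for MARCO and -0.78 ± 0.19 for CD14, and the summed intensity of the list was 2387 to 3097 at 400 mg/kg/day, against 3717 to 5673 at 3 mg/kg/day. Of 11 hepatocyte probe sets 2 fell, both of the 1 gene APOB, and 9 were not called. The summed intensity of the hepatocyte list was 93889 to 105940 at 400 mg/kg/day, against 114901 to 143964 at 3 mg/kg/day. No endothelial (9 of 10 probe sets tested), stellate cell (6 of 11) or T and NK cell (3 of 6) marker passed the test. Neither did a B and plasma cell (5 of 9), red cell (4 of 4) or cholangiocyte (2 of 5) marker. The part of the Kupffer cell and hepatocyte marker differences in the ribosomal protein values was not tested.

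**Figure D4:**
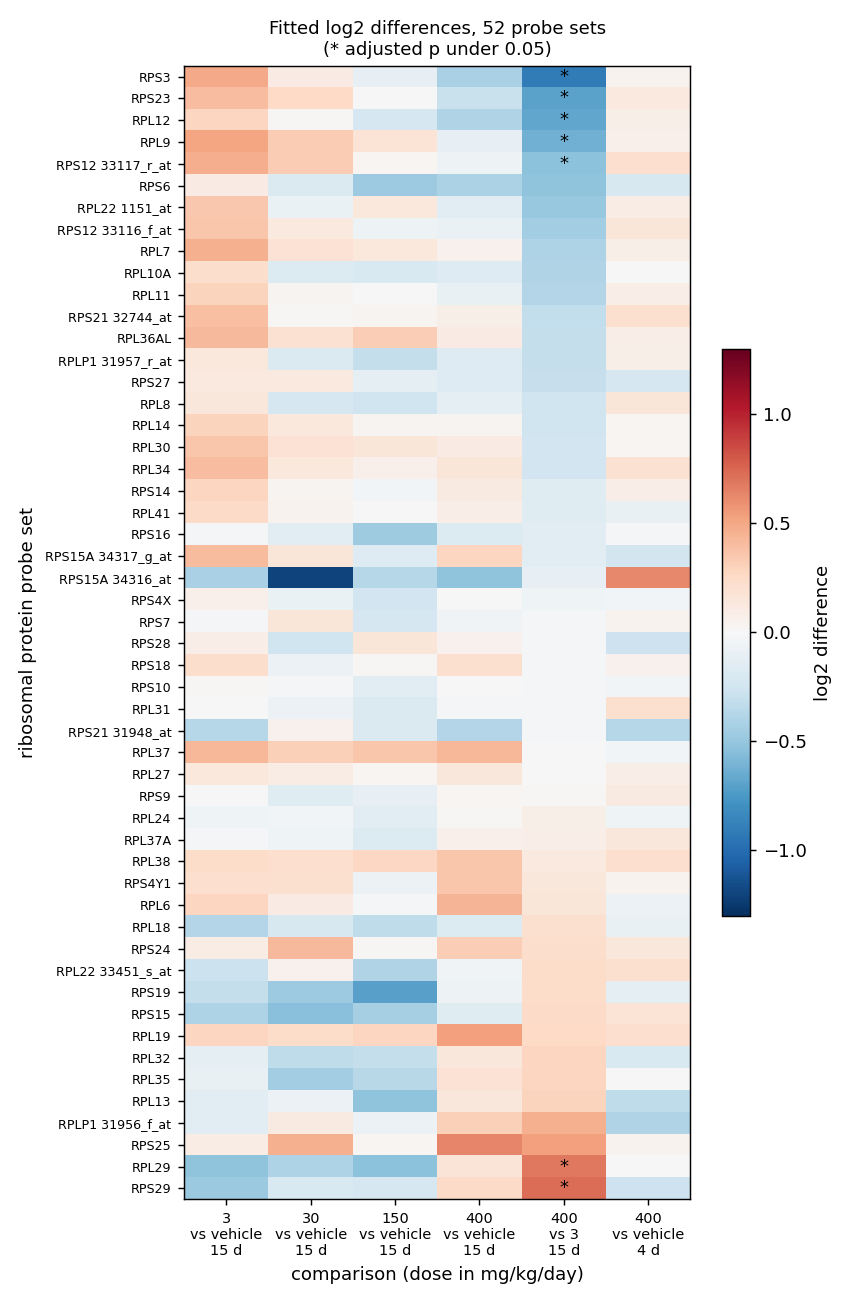
Fitted log2 differences of the 52 tested probe sets (rows, sorted by the difference of 400 from 3 mg/kg/day) in 6 comparisons (columns); red is higher and blue lower in the first-named dose, and an asterisk marks an adjusted p under 0.05. Asterisks appear in 1 column, 400 against 3 mg/kg/day, and no column is of 1 colour throughout.

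After 4 days, 400 mg/kg/day was compared with vehicle in 2 animals each. No member passed the test, beside 0.292% of all tested probe sets, 0 of 52 had an unadjusted p under 0.05 beside 7.63% of all tested, and the smallest adjusted p was 0.909. The median difference was 0.05, beside -0.05 over all tested probe sets. The 95% interval lay within a 2-fold change for 47 of the 52 probe sets. With 2 animals each, 11 members were separated upward (18.4% of all tested) and 8 downward (23.6%). The most negative differences were -0.39 for the RPLP1 probe set 31956_f_at, -0.37 for the RPS21 probe set 31948_at and -0.33 for RPL13. The most positive were 0.62 for the RPS15A probe set 34316_at, 0.22 for RPL19 and 0.22 for RPL38. The intensities of 34316_at were 56.8 and 5.1 at 400 mg/kg/day, against 13.2 and 6.2 on vehicle, mostly under the filter's 39.7. The other probe sets of RPLP1, RPS21 and RPS15A went the opposite way in group mean. Means at 400 mg/kg/day against vehicle were 4360 and 4153 for 31957_r_at, 5731 and 4980 for 32744_at, and 85.7 and 103.8 for 34317_g_at.

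Whether the effect of 400 mg/kg/day differed between 15 and 4 days was tested as an interaction. No member passed, nor did any other probe set (0%), and 0 of 52 members had an unadjusted p under 0.05, beside 3.37% of all tested probe sets. The median of the interaction was 0.01, and its 95% interval lay within a 2-fold change for 38 of the 52. RPS3 and RPL12 had -0.47 ± 0.28 and -0.47 ± 0.28, which together with the RPS15A probe set 34316_at at -1.15 ± 1.01 were the most negative. The RPLP1 probe set 31956_f_at, RPS25 and RPS29 had the most positive at 0.70, 0.59 and 0.52. The other probe sets of RPLP1 and RPS15A had the opposite sign, -0.24 for 31957_r_at and 0.51 for 34317_g_at.

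Irrespective of dose, the 19 animals of the 15-day set and the 4 animals of the 4-day set did not overlap for 8 of the 52 probe sets, beside 1.57% of all tested. RPL41, RPL34 and RPS15 were higher at 15 days, 3 members beside 0.889% of all tested. RPL14, RPL7, RPL37, RPS25 and RPS4Y1 were lower at 15 days, 5 members beside 0.677%. Here too the shares make no allowance for the smaller within-group SD of the members. RPL41 was 13359 to 19729 at 15 days, with a median of 14619.8, against 10581 to 11976 at 4 days. RPS25 was 486 to 1171 at 15 days, against 1203 to 1404 at 4 days, and its 4 animals after 15 days of 400 mg/kg/day stood between the 15-day vehicle animals and the 4-day animals. RPS4Y1, the Y-linked counterpart of RPS4X in human, was 79.1 to 260.1 at 15 days, against 305 to 372 at 4 days.

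These day differences carry no test, because the day of treatment and anything else that set the 4-day animals or their arrays apart cannot be told apart. The ratio of the 5′ to the 3′ control probe set of ACTB, a sign of RNA integrity and labelling, averaged 1.12 ± 0.133 at 400 mg/kg/day and 0.868 ± 0.170 on vehicle at 4 days (SD, n = 2 each). At 15 days it averaged 0.574 ± 0.0334 on vehicle (n = 3), 0.763 ± 0.182 at 3, 0.608 ± 0.0825 at 30, 0.640 ± 0.135 at 150 and 0.681 ± 0.126 at 400 mg/kg/day (SD, n = 4 each). The same ratio of GAPDH averaged 1.07 ± 0.139 at 400 mg/kg/day and 0.970 ± 0.0324 on vehicle at 4 days (SD, n = 2 each), and its group means at 15 days, 1.06 to 1.32, were not below the 4-day mean on vehicle. Within the 15-day set the means of both ratios were highest at 3 mg/kg/day, with 1.32 ± 0.188 for GAPDH (SD, n = 4). The part of either ratio in the day differences, or in the comparisons that use the animals at 3 mg/kg/day, was not tested.

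**Figure D5:**
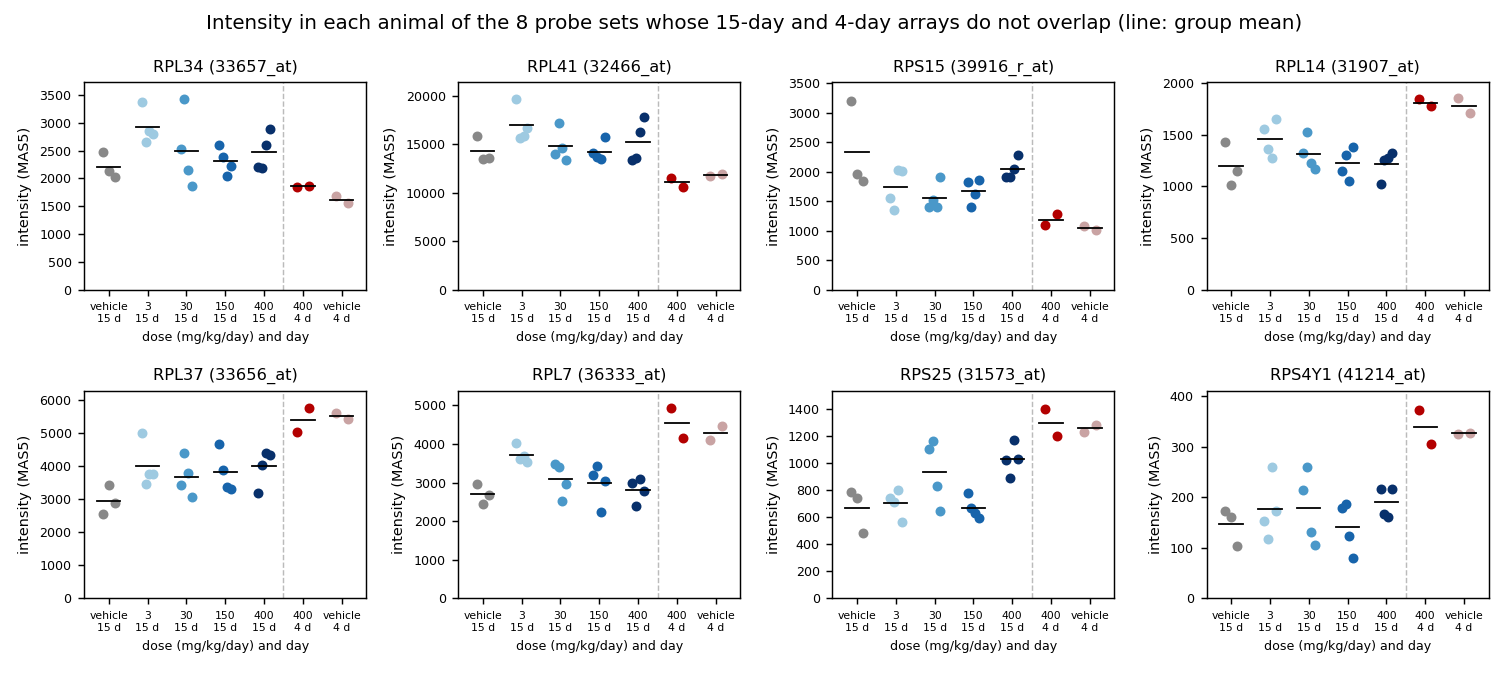
Intensity (MAS5, linear axis from 0) in each animal for the 8 probe sets whose 15-day and 4-day animals did not overlap, by dose and day, with group means as lines. RPL34, RPL41 and RPS15 lie higher in all 15-day animals, and RPL14, RPL37, RPL7, RPS25 and RPS4Y1 lower, whether the animals had drug or vehicle.

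Of the 47 genes, 5 had more than 1 tested probe set, and for 3 of them the probe sets disagreed in sign at 400 mg/kg/day against vehicle. RPS15A had -0.52 ± 0.61 with 34316_at and 0.28 ± 0.31 with 34317_g_at. RPS21 had -0.38 ± 0.35 with 31948_at and 0.07 ± 0.17 with 32744_at. RPLP1, an acidic protein of the large subunit's stalk that helps recruit elongation factors, had 0.31 ± 0.24 with 31956_f_at and -0.17 ± 0.19 with 31957_r_at. None of these differences passed the test, and no direction is given for the 3 genes. The intensity of 34316_at over all animals was 4.20 to 136, and that of 31948_at was 28.3 to 114, both under 39.7, the intensity at the filter, in some animals.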

How the data were processed

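Liver RNA of 23 animals in 7 groups was measured on 1 array each. The authors deposited MAS5 intensity values on a linear scale, per the submitters' processing notes; the version and settings are not given in the sources used here. No scaling was added. Control probe sets (67) were left out, 16 was added before log2, and the 7535 of 12558 probe sets at or above the 40th percentile of mean log2 value were tested. A means model over 7 groups gave 8 contrasts with limma 3.58.1 (R 4.3.3; eBayes with trend, Benjamini-Hochberg over the 7535). Precision is limited by 2 to 4 animals a group. Detection calls were not used here.

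Gene names came from the array's annotation table, in which 10961 probe sets named 1 gene, 545 several and 1119 none. The members, the gene lists, the tests and the naming rule were chosen with earlier results of these data known. Named are members called in any contrast, the 8 largest differences each way between 400 mg/kg/day and vehicle at 15 days and the 3 largest each way elsewhere, members with known extra-ribosomal roles or restricted paralogues, genes whose probe sets disagree, the 5 highest means and those under the filter. Alternatives varied the pseudocount, filter, scaling, variance prior, array weights, replicate block, samples fitted, probe sets per gene and single animals. The fit was also run on simulated data with independent noise in each probe set. That run checks the code and bears on no difference given here.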

Additional observations from a re-analysis of the deposited data

Results flagged for a closer look

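A single animal stood apart from the other 3 of its group, by the gap to its nearest neighbour relative to the group's range (Dixon's 95% critical value), in 8 of 132 tests, which covered 32 named probe sets and each animal's mean over the members in the 4 groups of 4 animals. Chance gives about 1 in 20. RPL9 was 4357.2 in replicate 2 at 30 mg/kg/day, against 3399 to 3472 in the others. In the same animal RPL37A was 9627.8, against 6369.6 to 6681 in the others. RPL18 was 1311.3 in replicate 4 at 30 mg/kg/day, against 734 to 824 in the others. The RPS21 probe set 32744_at was 2964.1 in replicate 1 at 30 mg/kg/day, against 3905 to 3981 in the others.

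The RPLP1 probe set 31957_r_at was high in replicate 4 at 3 mg/kg/day, 5624.7 against 4673 to 4755 in the others. It was also high in replicate 4 at 150 mg/kg/day, 4854.1 against 3115 to 3386 in the others. RPL11 was 2379.4 in replicate 1 at 150 mg/kg/day, against 1596 to 1725 in the others. RPS27 was 10899.1 in replicate 1 at 3 mg/kg/day, against 8042 to 8208 in the others.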

How the results depend on the processing

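The counts of members called were 0 in every alternative and with any 1 animal left out for 150, 30 and 3 mg/kg/day against vehicle, for 400 mg/kg/day at 4 days and for the interaction. Between 400 mg/kg/day and vehicle at 15 days the count was 1 with array weights and 1 with the replicate block, RPS25 both times (0.67 with limma's adjusted p = 0.0326, and 0.71 with 0.0428), and 0 otherwise. Animals of the same replicate number did not deviate together (18 correlations of -0.09 to 0.03), so the numbers were not read as pairs. These correlations were not all independent. The vehicle animals of the 15-day set entered several of the comparisons. In the groups of 2 animals at 4 days both replicate numbers necessarily gave the same value.

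The slope count was 1. It was 0 without the intensity filter, with the same median on every array, without the trend (robust prior) and with only the groups of the comparison, and 2 with quantile normalization, array weights, the replicate block and one probe set per gene. Leaving out single animals gave 0 to 3, and 0 without vehicle replicate 1 or 3 or without replicate 1 or 3 at 400 mg/kg/day. For 400 against 3 mg/kg/day the alternatives gave 6 to 9 calls and leaving out single animals 5 to 7. RPS3, RPS23, RPL9 and RPL29 passed in all of these fits. RPS12 missed the threshold without the filter, with the same median, without the trend and with only the groups compared (adjusted p 0.0629 to 0.115).

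The medians over members moved by less than 0.120 in every alternative and with single animals left out. That value is the SD within groups of an animal's mean over the members. It exceeds the size of every median except that of 3 mg/kg/day against vehicle, so staying under it says little. For the slope, which is given per step, it is no yardstick. Several medians lay too near 0 to keep a sign. Over the alternatives they ran from -0.0354 to 0.114 between 400 mg/kg/day and vehicle at 15 days, -0.00642 to 0.0879 for 30 mg/kg/day, -0.0365 to 0.0274 for 400 against 3 mg/kg/day, -0.0519 to 0.116 at 4 days and -0.00422 to 0.0553 for the interaction. With single animals left out the first 3 ran from -0.0379 to 0.121, -0.0434 to 0.109 and -0.110 to 0.0388, the interaction's from -0.0632 to 0.109 and the slope's from -0.0277 to 0.00861. Of 1291 values for 76 differences of named members, 1239 kept their sign and side of the threshold, 21 lost a call, 14 gained one and 17 changed sign. None of the sign changes was in a called difference. Between 400 mg/kg/day and vehicle at 15 days RPS19 turned to 0.0229 and RPS12 to 0.0234 with the same median on every array, and RPL41 to -0.0645 and RPL37A to -0.0706 with quantile normalization. With single animals left out, the differences ran from -0.430 to 0.0774 for RPS16, -0.343 to 0.0310 for RPL18, -0.209 to 0.0820 for RPS19, -0.314 to 0.0179 for RPLP1 31957_r_at, -0.0107 to 0.162 for RPL37A, -0.154 to 0.0778 for RPS12, -0.188 to 0.00932 for RPL9, -0.0311 to 0.237 for RPS21 32744_at and -0.0431 to 0.511 for RPS15A 34317_g_at. At 4 days they ran from -0.855 to 0.107 for RPS21 31948_at and -0.271 to 1.52 for RPS15A 34316_at. The causes of these changes were not tested.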
